A study of Homo sapiens with 6 samples.

Results

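The genes described here encode the heavy and light chains of myosin motors, together with the kinases MYLK and MYLK3 and the phosphatase subunits PPP1R12A and PPP1R12B that set light chain phosphorylation. They were taken by symbol alone, and 55 of the 20115 genes in the authors' deposited gene table belong to them. The authors' deposited table of downstream-of-gene (DoG) regions, stretches where transcription continues past a gene's end, holds 4 regions with a member's own name among 2014. In 2 more regions a member's name is joined to that of a microRNA gene. RNA came from MDA-MB-231, an established line of triple-negative breast cancer cells, with 3 libraries from control cells and 3 from cells carrying lentiviral, inducible hairpins against UBE3D that doxycycline switched on. Both groups were grown in serum-containing medium. The sources used here do not say which hairpin, if any, the control cells carried or whether they received doxycycline. The series concerns CPSF73, the endonuclease that cuts pre-mRNA at its 3' end, and the movement of breast cancer cells, and its design text asks what UBE3D depletion did to genes and readthrough transcripts.

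Myosins are motor proteins that walk on or pull on actin filaments with energy from ATP. The conventional, or class II, myosins are built from a pair of heavy chains (MYH genes) with essential and regulatory light chains (MYL genes), and they assemble into filaments that contract muscle or, in non-muscle cells, the cell cortex and stress fibres. Phosphorylation of the regulatory light chain by MYLK and other kinases switches non-muscle myosin on, and the phosphatase that PPP1R12A targets to myosin switches it off. The unconventional myosins (MYO genes) do not form such filaments. They carry cargo, tie membranes to actin, or work in filopodia, microvilli and the stereocilia of hair cells. In migrating cells MYH9 and MYH10 drive contraction and retraction, and MYO10 works at the tips of filopodia.

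The deposited tables give 1 comparison, knockdown over control, and no value per library, so levels are shown as the mean normalized count over the libraries, differences as log2 fold changes, and precision as the standard error (SE) of the log2 fold change. Depth per library is unknown. Nothing in the labels, which call every sample pooled, says that the libraries are separate cultures, so p-values reflect only how these libraries vary, and that variation may be technical. RNA was taken from whole cultures, so fewer cells expressing a gene and less of its RNA per cell cannot be told apart. The deposited log2 fold changes are shrunken toward 0, while the p-values behave as if they were not: in all 20112 gene rows compared, the change over its SE lay below the normal quantile of its p-value. UBE3D itself fell in the authors' deposited table (log2 fold change -0.80, SE 0.37, adjusted p = 0.00632). Of 12 markers listed for this line in the authors' deposited table, AXL, CD44, VIM and CAV1 had means from 6616 to 11376, and the receptor genes ESR1, PGR and ERBB2 had means of 22.2, 50.2 and 758. Of these 12 none rose and 4 fell, CAV1 (-1.68), MSN (-0.62), VIM (-0.34) and CD44 (-0.26), in the authors' deposited DESeq2 table (0 and 5 by unadjusted p under 0.05). That is 33.3% lowered, beside 4.62% raised and 7.93% lowered over all genes. Where mean counts reached 1000, as they did for the 4 lowered markers, the shares were 3.43% raised and 18.2% lowered. With 12 markers these shares are a description, and the list was not tested.

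Most myosin genes did not pass the threshold, an adjusted p below 0.05. By the authors' deposited values, 2 of the 55 rose, MYO7B and MYH3, and 5 fell, MYH13, MYH15, MYH1, MYO10 and MYO9B. These are 3.64% raised and 9.09% lowered, beside 4.62% and 7.93% of all genes, so the members' shares were near the background. The median log2 fold change was -0.04 for the myosin genes and -0.03 for all genes in the authors' deposited table. The 48 members not past the threshold ranged from -0.54 (MYH6) to 0.25 (PPP1R12A). Calls by abundance fell as follows. Of 27 members with a mean of at least 100, 2 rose and 2 fell, against 7.45% raised and 12.4% lowered among all such genes. Of the 28 members with a mean under 100, none rose and 3 fell, against 1.96% and 3.75% of all such genes. By unadjusted p under 0.05 in the authors' deposited DESeq2 table, 0 rose and 8 fell of the 28, against 494 and 1261 of all 10372 such genes.

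**Figure D1:**
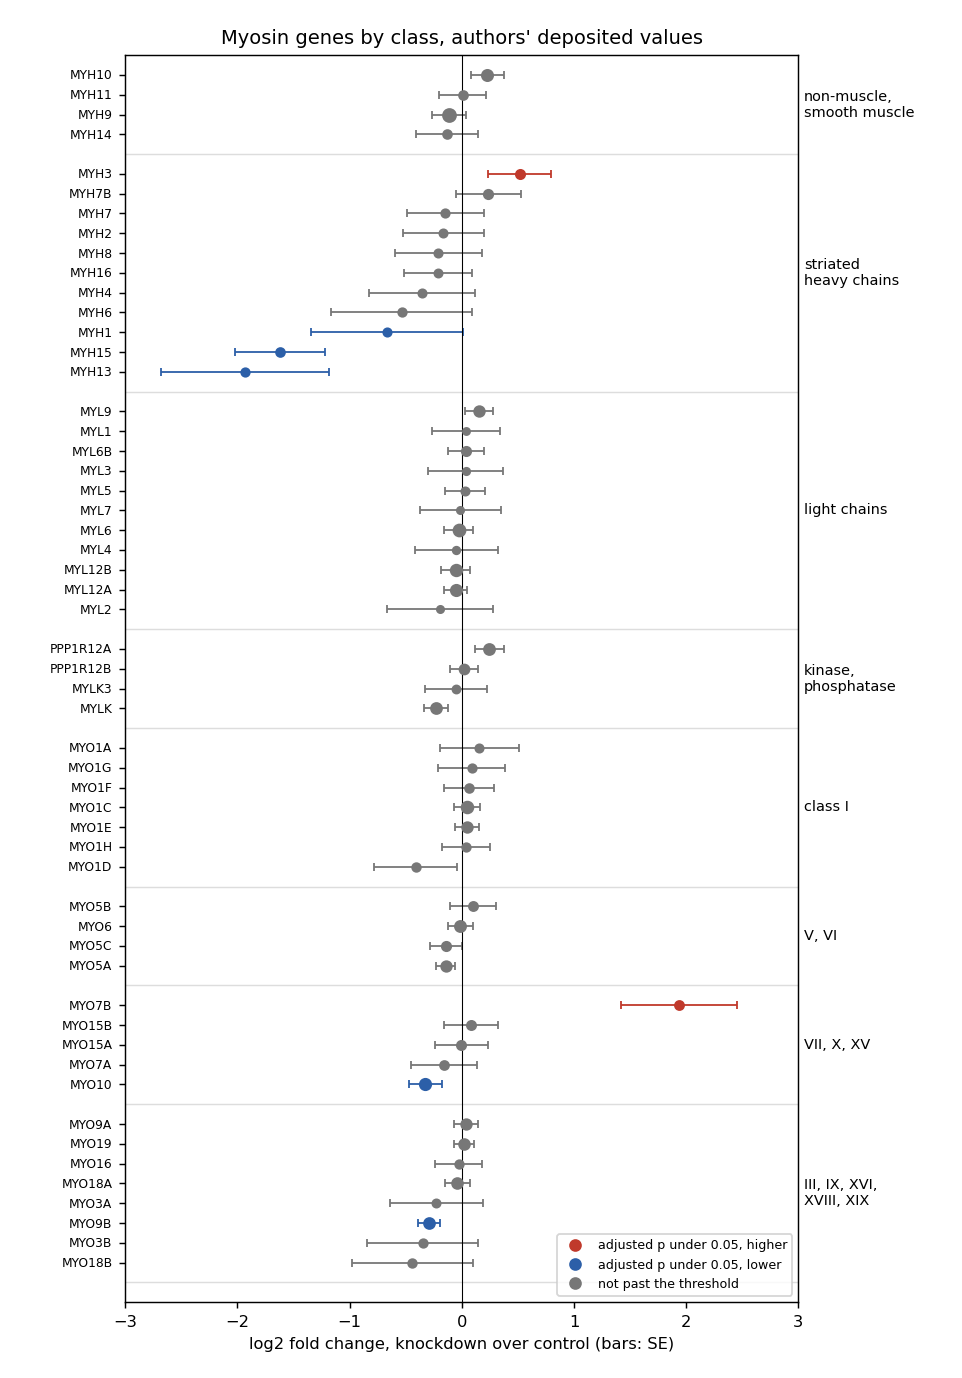
Log2 change of 54 of the 55 myosin genes, knockdown over control, with its SE as a bar, grouped by class; larger points have a higher mean count. MYO7B at 1.93, MYH13 at -1.93 and MYH15 at -1.62 stand apart, and the other members lie between -0.66 and 0.51.

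**Figure D2:**
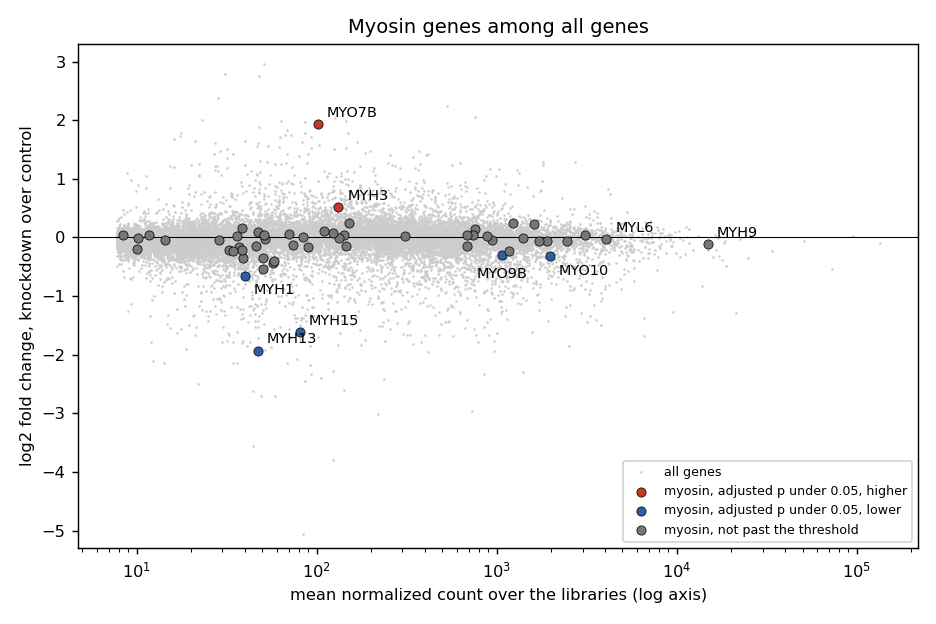
Log2 fold change against mean normalized count (log axis) for all 20115 genes, with the myosin genes on top. The members with changes beyond 1 in size have means from 47.3 to 101, and the 12 members with a mean of at least 1000 lie between -0.33 and 0.25.

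MYO7B had the largest rise of the myosin genes. It encodes a class VII motor known from the tips of microvilli in intestinal and kidney epithelium. The authors' deposited table puts MYO7B at 1.93 on the log2 scale (SE 0.52, adjusted p = 2.41e-05), a shrunken rise of 3.82-fold and the 12th highest change of all genes. Its mean was 101 normalized counts. A Wald test on the deposited change and SE, adjusted over all genes, also passed (adjusted p = 0.00444). MYO7B lies on the plus strand of chromosome 2 (127535802 to 127637729, GRCh38). LIMS2, which encodes a LIM-domain adaptor of integrin adhesions, lies on the minus strand (127638381 to 127681786), so the ends of both genes face each other across 651 bases.

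The DoG region of LIMS2 therefore points at MYO7B. In the authors' deposited table this region had the highest change of all 2014 DoG regions, 2.38 on the log2 scale (SE 0.36, adjusted p = 1.74e-11), at a mean of 119. The LIMS2 gene itself had 0.26 (SE 0.19, adjusted p = 0.159) at a mean of 137 in the authors' deposited table. The difference of region minus host was 2.12 (SE 0.41, adjusted p = 2.28e-05 over 1920 regions with a host, 8.39% of which passed in either direction). Libraries were stranded per the labels' protocols, but whether reads were counted by strand is not given in the sources used here. Without strand, reads of MYO7B and of transcription running out of LIMS2 cannot be told apart, and the rise of either row could hold reads of the other.

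Further genes of the neighbourhood were read from a list of 12. GPR17, a G protein-coupled receptor gene on the plus strand (127645864 to 127652639), lies 8134 bases beyond the end of MYO7B and inside the annotated span of LIMS2. It rose as well in the authors' deposited table (log2 fold change 0.92, SE 0.37, adjusted p = 0.00247, mean 64.0). AMMECR1L, 223900 bases beyond the end of MYO7B, fell (-0.25, SE 0.11, adjusted p = 0.0365) in the authors' deposited table. The other 10, among them the upstream neighbour IWS1 at 0.04 (adjusted p = 0.837) and WDR33 at 0.20 (adjusted p = 0.0846), did not pass. Brush border partners of MYO7B gave no call either: of 15 partners of MYO7A and MYO7B with a row, 0 rose and 0 fell in the authors' deposited DESeq2 table (1 and 1 by unadjusted p under 0.05). EPS8L2 was at 0.30 (adjusted p = 0.0595). Among 9 measured markers of brush border epithelium CDH1 rose (1.06, SE 0.39) and EPCAM fell (-0.67, SE 0.21) in the authors' deposited table. The other 7 did not pass, among them VIL1 (mean 23.1) at -0.01. These 11.1% raised and 11.1% lowered, and the 0 of 15 partners, are to be read beside 4.62% and 7.93% of all genes. The part of these markers in the MYO7B result was not tested.

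**Figure D3:**
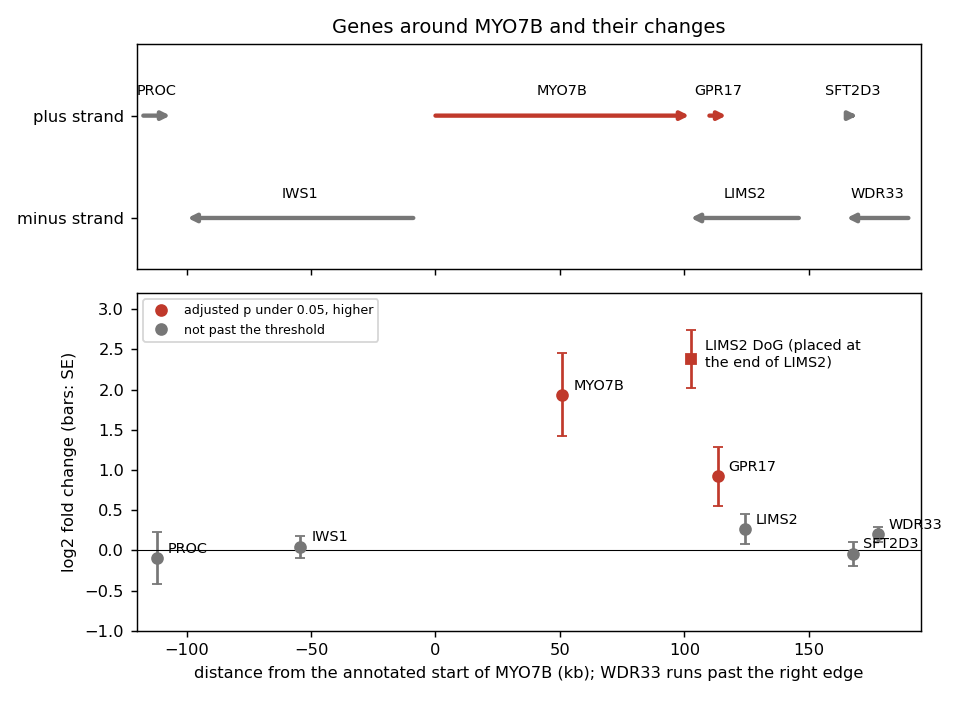
Upper panel, genes around MYO7B drawn to scale as arrows in the direction of transcription, against distance from the start of MYO7B in kb; lower panel, their log2 fold changes with SE. MYO7B (1.93), the LIMS2 DoG region (2.38) and GPR17 (0.92) are raised, while LIMS2 (0.26), IWS1 (0.04) and WDR33 (0.20) did not pass the threshold.

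Of the 4 other motors of protrusions 1 was called, beside 4.62% raised and 7.93% lowered of all genes. Where means reached 1000, as for the called gene, the shares were 3.43% and 18.2%. MYO10, the filopodial motor that also carries integrins, fell in the authors' deposited table (log2 fold change -0.33, SE 0.15, adjusted p = 0.0301) at a mean of 1970, the fifth highest mean of the members. This call was lost in the Wald test on deposited values (adjusted p = 0.283). MYO7A, the hair cell counterpart of MYO7B, had -0.16 (SE 0.29, mean 89.6) in the authors' deposited table. MYO15A, a stereociliary motor, had -0.01 (SE 0.24) and MYO15B 0.08 (SE 0.24), with means of 133 and 124, per the authors' deposited table. On the shrunken scale, the 95% intervals computed from these deposited values reach from -0.74 to 0.42 for MYO7A and from -0.47 to 0.46 for MYO15A. They are not limits of detection, as MYH3 was called at 0.51 with an SE of 0.28.

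Heavy chains of striated muscle, which form the thick filaments of skeletal and heart muscle, held 4 of the 7 calls. Of 11 such genes in the authors' deposited table, 1 rose (9.09%) and 3 fell (27.3%), beside 4.62% and 7.93% of all genes. Over all genes with a mean under 100 the shares were 1.96% and 3.75%, and from a mean of 100 on 7.45% and 12.4%. A change below 0 was seen in 9 of the 11, beside 11416 of all 20115 genes and 6566 of the 10372 with a mean under 100. With 11 genes these shares are a description, and no test of the class was made. All were of low abundance, with means from 32.7 to 151. MYH13, the chain of extraocular muscle, had a mean of 47.3 and a log2 change of -1.93 (SE 0.75, adjusted p = 0.000255) in the authors' deposited table. MYH15, a divergent member of the family on chromosome 3 (108380369 to 108529322, minus strand), fell by 1.62 (SE 0.40, adjusted p = 1.78e-05) at a mean of 80.5. After shrinkage these falls were 3.81-fold and 3.08-fold. MYH1, a fast chain of adult skeletal muscle, fell by 0.66 (SE 0.68, adjusted p = 0.0403) at a mean of 40.0, and MYH3, the embryonic chain, rose by 0.51 (SE 0.28, adjusted p = 0.0289) at a mean of 132, in the authors' deposited table.

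The Wald test on deposited values kept the call of MYH15 (adjusted p = 0.00152) and lost those of MYH13 (0.135), MYH3 (0.538) and MYH1 (1). The cardiac chains MYH6 and MYH7 had -0.54 (SE 0.63, adjusted p = 0.0658) and -0.15 (SE 0.34, adjusted p = 0.478) in the authors' deposited table. MYH7B, whose gene hosts a microRNA, had 0.24 (SE 0.29, adjusted p = 0.288) at a mean of 151. MYH16, annotated as a transcribed unitary pseudogene in GENCODE, had -0.21 (SE 0.31) at a mean of 32.7 in the authors' deposited table. Muscle markers were mostly scarce: of 21 striated muscle markers listed, 19 had a row, with MYOD1 at a mean of 9.15, MYOG at 10.7 and ACTA1 at 9.23. MYF5 and MYF6 were not analysed here. Of these markers 1 rose, TNNC1 (0.65, SE 0.65, adjusted p = 0.0437, mean 13.1), and none fell in the authors' deposited DESeq2 table (2 by unadjusted p under 0.05). Over all genes 4.62% rose and 7.93% fell. TTN had the highest mean, 1015, and a log2 fold change of -0.07. The part of these markers in the falls was not tested.

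Of the striated genes, 6 stand in a cluster on chromosome 17 that spans 356 kb, all on the minus strand. In the order of the chromosome, the log2 fold changes in the authors' deposited table were -1.93 for MYH13, -0.21 for MYH8, -0.36 for MYH4, -0.66 for MYH1, -0.16 for MYH2 and 0.51 for MYH3. MYH13 and MYH3, which passed in opposite directions, are the outermost genes. These genes are close copies, so reads of 1 can be counted for another. Of all 75-base windows (the read length) in the annotated transcripts of MYH1, 11.7% also occur in another member, 507 of them in MYH2. The share was 9.61% for MYH2, 5.88% for MYH13, 3.84% for MYH8 and 1.77% for MYH3, and 386 of 5942 windows in MYH4. It was 7.30% for MYH6 and 7.70% for MYH7, which have 463 windows in common. Outside the striated genes no member shared over 1% of its windows with another member. The called genes MYO7B, MYH15, MYO10 and MYO9B had no window in common with any other gene.

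Longer runs are shared with genes that did not pass, 259 bases between MYH1 and MYH2 and 192 bases between MYH13 and MYH8. The longest run that MYH1 and MYH13 have in common, the lowered pair of the cluster, is 125 bases long. Whether shared reads enter either fall was not tested. This run is printed from the GENCODE 29 transcripts because a 75-base read inside it has the same sequence in both genes. Only its mate can then place the pair.
MYH1 and MYH13: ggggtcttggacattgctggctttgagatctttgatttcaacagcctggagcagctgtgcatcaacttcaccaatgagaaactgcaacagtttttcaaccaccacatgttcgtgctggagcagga

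The promoters of the striated chains have a feature that the symbols do not show. The motif TATAAA, read on both strands (TTTATA on the other), lies between 250 bases before and 50 bases after the annotated start in 7 of 7 striated heavy chain promoters in the RefSeq table. It lies in 5 of the 56 promoters of the other members and in 11.5% of all 35116 promoters of that length. The table matched 44 of the 55 members. MYH3, MYH7, MYH7B and MYH16 were among those with no entry, as were MYH11, MYL2, MYL4, MYL9, MYO18B and MYO7A. A match is a description of the sequence only, and the motif was looked at after the values were known. In MYH15 the only match begins 145 bases before the start, and in MYH8 the only match is the reverse form, 186 bases before it. In the other 5 genes a match begins 29 to 31 bases before the start. These windows are shown 5' to 3' with the motif in capitals (RefSeq, GRCh38.p14, all minus strand), so that called and uncalled genes can be compared. MYH13 and MYH1 fell, and MYH2, MYH4 and MYH6 did not pass the threshold.
MYH13 (chr17:10373018-10373047): cagatttgggagTATAAAgagagctggggg
MYH1 (chr17:10518556-10518585): catatttgagccTATAAAagtacccttgga
MYH2 (chr17:10549672-10549701): catagctatccaTATAAAagagcccttgga
MYH4 (chr17:10469573-10469602): cagaatggtctcTATAAAagtggagctgag
MYH6 (chr14:23408286-23408315): ggggaaacgggaTATAAAggaactggagct
The motif is thus found near the start of called and uncalled genes alike.

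Non-muscle myosin II, the contractile motor of the cell cortex, had no call. MYH9, its main heavy chain and the most abundant member with a mean of 14838, was at -0.11 on the log2 scale (SE 0.15, adjusted p = 0.535) in the authors' deposited table. The 95% interval from these values was -0.40 to 0.18 on the shrunken scale, which is not a limit of detection. MYH10, the second non-muscle heavy chain, had 0.23 (SE 0.15, adjusted p = 0.161) at a mean of 1620, per the authors' deposited table. MYH14, the non-muscle chain of epithelia, had -0.13 (SE 0.28) at a mean of 73.5, and MYH11, the smooth muscle chain, had 0.01 (SE 0.21) at a mean of 83.6. Among these 4 genes 1 had an unadjusted p under 0.05 in the authors' deposited DESeq2 table, and it was MYH10. No call among 4 genes is to be read beside 4.62% raised and 7.93% lowered of all genes. Of 10 smooth muscle markers, MYH11 among them, SMTN had a mean of 475 and the other 9 had means from 11.7 to 83.6 in the authors' deposited table. Among the 10, 1 rose, CNN1 (1.07, SE 0.83, adjusted p = 0.00873, mean 22.3), and none fell, by unadjusted p under 0.05 included.

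No light chain gene was called. Of 11 light chain genes 0 rose and 0 fell in the authors' deposited DESeq2 table, beside 4.62% and 7.93% of all genes. With 11 genes this is a description only. Of the 11 light chain genes, 0 had an unadjusted p under 0.05. Their log2 fold changes ran from -0.19 (MYL2, SE 0.47) to 0.15 (MYL9, SE 0.12). The essential chain gene MYL6 had -0.03 (SE 0.13) at a mean of 4070, and the regulatory chain genes MYL12B and MYL12A had -0.05 (SE 0.13) and -0.05 (SE 0.10) at means of 2470 and 1911, in the authors' deposited table. With genes centred on others of like abundance, these 3 changes became 0.0253, 0.00153 and 0.00116, so their sign carries no direction. MYL9, a regulatory chain of smooth muscle and non-muscle cells, had an adjusted p of 0.333 at a mean of 756. The muscle chains MYL1, MYL2, MYL3, MYL4 and MYL7 had means from 8.45 to 14.4 and SE from 0.30 to 0.47 in the authors' deposited table. Changes of 0.5 in either direction lie within the 95% interval of each of these 5 genes.

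None of the 4 kinase and phosphatase genes passed the threshold (1 raised and 1 lowered by unadjusted p under 0.05 in the authors' deposited DESeq2 table). Over all genes the shares past it were 4.62% raised and 7.93% lowered. MYLK, the calmodulin-dependent kinase of the regulatory chain, was at -0.23 on the log2 scale (SE 0.11, adjusted p = 0.0651), with a mean of 1165, in the authors' deposited table. PPP1R12A, the subunit that brings the phosphatase to myosin, had 0.25 (SE 0.13, adjusted p = 0.0836) at a mean of 1229. Both would be called at an adjusted p under 0.1. PPP1R12B had 0.02 (SE 0.12) and MYLK3, the cardiac kinase, -0.05 (SE 0.28) in the authors' deposited table.

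Class I myosins, single-headed motors that tie membranes to actin, gave no call among 8 genes, beside 4.62% raised and 7.93% lowered of all genes. By unadjusted p under 0.05 in the authors' deposited DESeq2 table, 0 of the 8 were raised and 1 was lowered, MYO1D. MYO1C (0.05, SE 0.11, mean 3088) and MYO1E (0.05, SE 0.11, mean 737) were among the abundant ones, per the authors' deposited table. The 5 scarcest had means from 38.4 to 70.2, and among them MYO1D had the lowest change, -0.41 (SE 0.37, adjusted p = 0.112). MYO1F and MYO1G, known from blood cells, had 0.06 and 0.09 at means of 70.2 and 47.5 in the authors' deposited table. Of 6 blood markers with a row, both of these among them, 0 were called there by DESeq2, and 0 had an unadjusted p under 0.05.

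The transport motors of classes V and VI gave no call among 4 genes either, and 0 at an unadjusted p under 0.05 in the authors' deposited DESeq2 table. Among all genes 4.62% rose and 7.93% fell. MYO5A, which carries melanosomes and secretory vesicles, had -0.14 (SE 0.09, adjusted p = 0.227) at a mean of 682. MYO6, the motor that walks toward the minus end of actin, had -0.01 (SE 0.11) at a mean of 1400, and it had 0.0121 once all genes were recentred on their median and 0.0316 when centred on genes of like abundance. MYO5B had 0.10 (SE 0.20) and MYO5C -0.14 (SE 0.15) in the authors' deposited table.

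MYO9B, a motor whose tail inactivates RHOA, was the 1 called gene among the 8 remaining motors. Its log2 change was -0.29 (SE 0.10, adjusted p = 0.00572) at a mean of 1067 in the authors' deposited table. The Wald test on deposited values passed (adjusted p = 0.0475), and after recentring all genes on their median it did not (0.0955). Its relative MYO9A had 0.04 (SE 0.11) at a mean of 687, and whether the change differs between both genes was not tested. MYO18A (-0.04, SE 0.11) and the mitochondrial motor MYO19 (0.02, SE 0.09) had means of 948 and 884 in the authors' deposited table. The transcripts of MYO18A share 8.26% of their 75-base windows with TIAF1, which lies within its span. MYO3A, MYO3B, MYO16 and MYO18B had means from 34.4 to 57.3 and changes from -0.44 to -0.03.

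Levels between genes were compared per length, as the mean normalized count per kb of annotated exon. On this scale MYH9 ranked first of the 55 with 1646 per kb, followed by MYL12B with 1278, MYL6 with 883 and MYL12A with 589. MYO1C had 381 per kb, MYL9 268, MYH10 180, MYO6 159 and MYO10 141. The median over 18409 genes was 24.5 per kb. MYO7B had 11.5 per kb, MYH15 10.5, MYH13 7.72 and MYH1 6.64, so the genes with the largest changes were among the scarce ones. The scale uses all annotated exons and ignores which isoforms the cells make, and errors over libraries cannot be given.

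Readthrough past myosin genes was measured in few places. The regions of MYO1H and MYL6 fell in the authors' deposited table, and 2 of 4 regions with a member's own name is to be read beside 16.1% lowered and 12.7% raised among all DoG regions. The MYO1H region was at -0.31 on the log2 scale (SE 0.10, adjusted p = 0.00415) with a mean of 759, and the MYL6 region at -0.31 (SE 0.11, adjusted p = 0.00843) with a mean of 211, per the authors' deposited table. The MYO9A region had -0.22 (SE 0.13, adjusted p = 0.12, mean 179) and the MYL9 region 0.24 (SE 0.17, adjusted p = 0.152, mean 145). None of the 4 rose, by unadjusted p under 0.05 in the authors' deposited DESeq2 table included. Of the regions with joined names, the one named for MYH7B and its microRNA fell (-0.25, SE 0.10, adjusted p = 0.0173, mean 672), and the one named for MYO1E had -0.18 (SE 0.12, adjusted p = 0.178, mean 658) in the authors' deposited table.

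Each region was set against its host gene. The host genes MYO1H, MYL6 and MYH7B had 0.04, -0.03 and 0.24 in the authors' deposited table, and the region minus host differences were -0.35 (95% interval -0.82 to 0.12), -0.28 (-0.62 to 0.06) and -0.49 (-1.09 to 0.11). In 5 of the 6 regions the value was lower than that of the host, and in MYL9 it was higher by 0.09 (-0.32 to 0.51). The difference passed in 0 of the 6, with adjusted p from 0.395 to 0.885 over 1920 regions by the normal test of 2 deposited values, and 0 had an unadjusted p under 0.05. Whether both tables used the same scaling is not known, so levels of regions and genes are not compared.

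**Figure D4:**
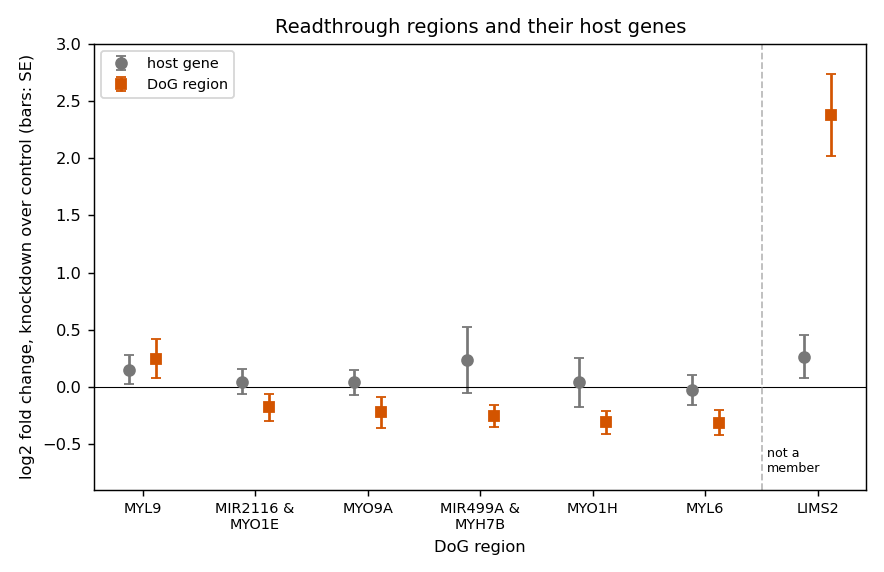
Log2 fold changes of the 6 myosin DoG regions (squares) and their host genes (circles), with SE as bars, and of LIMS2 at the right as a region that faces MYO7B. The lowered regions lie near -0.3 with hosts between -0.03 and 0.24, and the LIMS2 region stands at 2.38.

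Genes of the opposite strand lie near many members. Within 10 kb of the member's end or overlapping it, 29 of the 55 had a gene with a row in the table, 35 pairs in all. Of the 30 opposite genes 1 was called, beside 4.62% raised and 7.93% lowered of all genes. It was PSMD11, which fell (-0.50, SE 0.11, adjusted p = 7.31e-06) in the authors' deposited table and lies 9204 bases past the end of MYO1D. The last bases of MYO1H overlap KCTD10 by 6868 bases, so the bases past its end lie opposite that gene, whose change was -0.13 (SE 0.09, adjusted p = 0.285, mean 875) in the authors' deposited table. MYH7B ends 34 bases inside TRPC4AP (-0.13, SE 0.09, adjusted p = 0.273, mean 1172), and MYL6 overlaps SMARCC2 by 514 bases (-0.07, SE 0.09, adjusted p = 0.622, mean 682). For these 3 regions, reads of the region and of the opposite gene cannot be told apart if strand was not used. The same limit holds for a member and a gene that overlaps it. MYHAS overlaps the called gene MYH1 by 26237 bases, and also MYH2, MYH4 and MYH8. It had -0.27 (SE 0.45, adjusted p = 0.231, mean 21.0) in the authors' deposited table. In the other direction, 5 DoG regions of opposite-strand genes face a member. Those of NDEL1 (facing MYH10), SMARCC2 (facing MYL6 and MYL6B), ZNHIT3 (facing MYO19) and CCNB2 (facing MYO1E) had 0.22, -0.12, 0.08 and -0.06 in the authors' deposited table, with adjusted p from 0.0785 to 0.742. The region of LIMS2 was the 1 of the 5 that passed, beside 12.7% raised and 16.1% lowered of all DoG regions.

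Genes whose products work with myosins were read from 6 lists, chosen with earlier results known. Of 28 cargo adaptors and binding partners of unconventional myosins, 2 rose (7.14%) and 7 fell (25%) in the authors' deposited table, with a median change of -0.09. All genes had 4.62% and 7.93%, and those with a mean of at least 100 had 7.45% and 12.4%. The latter are closer in abundance to this list, whose median mean count was 721. RAB27B (log2 fold change -1.83, SE 0.19, adjusted p = 3.81e-21), MLPH (-1.25, SE 0.15, adjusted p = 4.49e-16) and RAB27A (-1.10, SE 0.14, adjusted p = 3.55e-14) led the falls in the authors' deposited table. RAB27A and MLPH, which encodes melanophilin, are the small GTPase and the linker that attach MYO5A to its vesicles, and MYO5A itself had -0.14. DAB2, an endocytic adaptor of MYO6, rose by 0.80 (SE 0.11, adjusted p = 3.32e-12) in the authors' deposited table, beside MYO6 at -0.01. ITGB5 fell by 0.76 (SE 0.12), the actin nucleator gene SPIRE1 by 0.70 (SE 0.13), VASP by 0.43 (SE 0.14) and SYTL2 by 0.48 (SE 0.26), while TAX1BP1, an autophagy adaptor that binds MYO6, rose by 0.37 (SE 0.17). These 5 values are from the authors' deposited table too.

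Actin genes were called where non-muscle myosin chains were not. The cytoplasmic actins ACTB (-0.53, SE 0.20, adjusted p = 0.00426) and ACTG1 (-0.36, SE 0.13, adjusted p = 0.00723) fell, at means of 73090 and 24742 in the authors' deposited table. The muscle-type tropomyosin gene TPM2 fell by 0.62 (SE 0.30) and CNN1 rose, and the other 22 of 26 actin partners did not pass (3.85% raised and 11.5% lowered, median of the list -0.04). Whether ACTB or ACTG1 differs from MYH9 was not tested. The list of 33 regulators of light chain phosphorylation also held the LIM kinase genes LIMK1 and LIMK2. Among these 33 none rose and 3 fell (9.09%, near the 7.93% of all genes) in the authors' deposited DESeq2 table, with a median of -0.10 (2 and 7 by unadjusted p under 0.05). ARHGEF2, an activator of RHOA, fell by 0.49 (SE 0.09, adjusted p = 5.21e-08), the kinase gene PAK2 by 0.46 (SE 0.15, adjusted p = 0.00177) and LIMK1, which phosphorylates cofilin, by 0.21 (SE 0.08, adjusted p = 0.0313).

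Of 9 chaperones and calmodulins, UNC45B, the myosin chaperone of muscle, fell by 0.64 (SE 0.72, adjusted p = 0.039, mean 43.0) and none rose, by unadjusted p under 0.05 included, in the authors' deposited DESeq2 table. Targets of serum response factor and its coactivators, a list that also holds MYH9 and MYL9, went both ways. Of 18, ANKRD1 (1.29, SE 0.17) and CNN1 rose and EGR1 (-1.54, SE 0.30), CTGF (-0.65, SE 0.13) and the coactivator gene MKL2 (-0.32, SE 0.10) fell in the authors' deposited table (11.1% raised and 16.7% lowered), with a median of -0.02. Both lists are to be read beside 4.62% raised and 7.93% lowered of all genes.

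**Figure D5:**
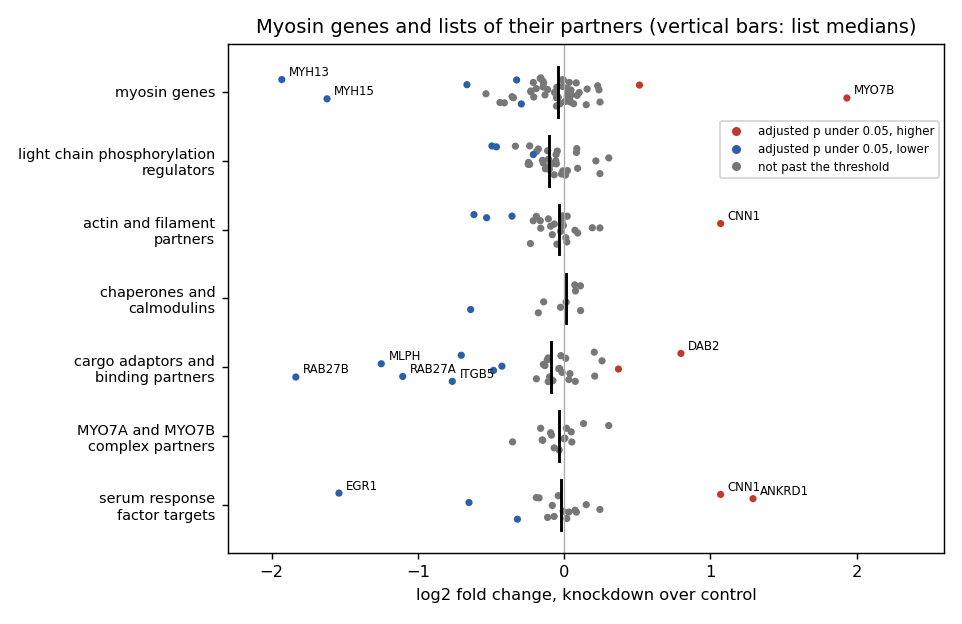
Log2 fold changes of the myosin genes and of 6 lists of genes that work with them; each point is a gene, coloured by its call, and the vertical bars are medians. All medians lie between -0.10 and 0.01, and the cargo adaptors hold the widest falls outside the myosins, down to -1.83 for RAB27B.

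The words GATTGAA and CTTATCT were looked for in 3' untranslated regions because an earlier analysis of these data had singled them out, and whether either goes with a change was not tested. Among 53 members with an annotated 3' untranslated region of at least 50 bases in GENCODE 29, 1 holds GATTGAA on its sense strand, beside 9.50% of all 16171 genes with such a region. It is MYO5C (log2 fold change -0.14, adjusted p = 0.421 in the authors' deposited table). The site is shown because it is the sole match among the members, with the word in capitals.
MYO5C: aaacaacctcaGATTGAAaaagcaaccta
CTTATCT occurs in 5 members, among them MYO1D, MYO6, PPP1R12A and PPP1R12B, which is 9.43% of the members with a region and 10.9% of all genes with one. None of these 6 members was called, and none of the 7 called members holds either word. The sources used here give no hairpin sequence.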

How the data were processed

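Per the labels' protocols, ribosomal RNA was depleted and stranded libraries made by random priming were read as 75-base pairs. The authors used DESeq2, STAR 2.5.2b and cutadapt 1.8.1 with build hg38, per the submitters' processing notes. The sources used here do not give the annotation, the counter and its strand setting, or how DoG regions were called. The authors deposited, per the file headers, these values for each gene or DoG region: the log2 fold change and its SE, the p-value before and after adjustment, a mean normalized count, treated as a signal, and a TRUE or FALSE mark, which was not used for calls here. Benjamini-Hochberg adjustment over each table gives the deposited adjusted values. Calls are those of the authors' deposited DESeq2 p-values at an adjusted p under 0.05. Counts of calls in each class or gene list are to be read beside 4.62% raised and 7.93% lowered of all genes.

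Members were found by symbol. Members, classes, gene lists and the naming rule were chosen with earlier results of these data known. The rule names each called member, each with a DoG row or a mean of at least 1000, and up to 4 called genes per list (up to 2 where none passed); other names were added after their values were seen. A few genes that enter the counts are not reported here by name. Region minus host differences were tested against an SE that combines both deposited SEs as independent, with two-sided normal p-values adjusted over 1920 regions; this was tested on simulated data. The 95% intervals are 1.96 SE in each direction on the shrunken scale. Positions, exon lengths and transcripts come from GENCODE 29 (GRCh38), matched by symbol for 18409 genes and all 55 members, and promoters from RefSeq (GRCh38.p14). Software was scipy 1.17.1, pandas 2.3.3, numpy 2.4.6 and Python 3.11.15. Alternatives were other thresholds, a minimum mean, a Wald test on the deposited values, and shifts of the fold changes.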

Additional observations from a re-analysis of the deposited data

How the results depend on the processing

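Counts of called myosin genes depended on the threshold and the test. Against 2 raised and 5 lowered, there were 3 and 7 at an adjusted p under 0.1, 1 and 3 at an adjusted p under 0.01, 2 lowered at a mean of at least 100, 1 and 2 in the Wald test on deposited values, and 1 and 1 after recentring all genes on their median. The Wald tests divide shrunken changes by their SE and so call fewer genes by construction. MYO7B and MYH15 passed both Wald tests and the threshold of 0.01, while MYH15 lies under a mean of 100. The 2 lowered DoG regions and the absence of called region minus host differences held in each alternative run. Signs turned for members near 0: MYO6 became 0.0121 after recentring on the median and 0.0316 when centred on genes of like abundance, where MYL12A became 0.00116, MYL12B 0.00153 and MYL6 0.0253. The medians removed were -0.03 for genes and -0.01 for DoG regions. No paired analysis was possible because the files hold no value per library, and for the same reason no replicate could be left out. No depth per library is known, so precision is limited by the deposited SE alone.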
